A study of Mus musculus with 3 samples.

Results

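The 10 genes described here are the MHC class II presentation genes Cd74, H2-Aa, H2-Ab1, H2-Eb1, H2-DMa, H2-DMb1, H2-DMb2, H2-Oa, H2-Ob and Ciita. They were chosen by name for their place in the pathway, not by their values, out of 32285 genes counted in peripheral blood mononuclear cells (PBMCs) of mice. All 10 were found in the count matrices of all 3 libraries. Single cells were captured in droplets with 10x 3′ chemistry, and the values are unique molecular identifiers (UMIs), each standing for a captured mRNA molecule.

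The young library came from C57BL/6 mice of 8 weeks, the aged library from C57BL/6 mice of 16 months, and the aged-GA library from mice of 16 months that had received glycyrrhizic acid (GA), a saponin of liquorice root, by tail vein injection for 1 month. The labels give no treatment for the young and aged mice, while the study's methods say that control mice were injected with PBS by the same route, without naming which groups these were. The young mice were bought from a supplier and the aged mice came from the laboratory's own stock, so that age and origin cannot be told apart. The study names several mice per group and the labels give 1 library per group, without saying whether blood was pooled. With 1 library per group there is no replicate error and no test between groups. All intervals printed here are 95% intervals and cover counting error only.

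MHC class II molecules are heterodimers of an alpha and a beta chain that carry peptides from endosomes to the cell surface, where CD4+ T cells read them. The invariant chain, encoded by Cd74, holds the groove closed on the way to the endosome, H2-DM exchanges its last fragment for peptide, and H2-DO restrains H2-DM. The transactivator CIITA, recruited by factors bound to the X and Y boxes upstream of these genes, switches most of them on together, and in blood the pathway is known for B cells, dendritic cells and part of the monocytes.

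Filters on genes and mitochondrial UMIs kept 8851 young, 10238 aged and 12648 aged-GA cells, with median depths of 4671, 3810 and 4752 UMIs per cell. Cells were put in classes by how many markers of each class they carried, and no class II gene was among the markers. B-like cells numbered 2217, 3739 and 4866 in the young, aged and aged-GA libraries, T-like cells 5182, 1894 and 2835, classical monocyte-like cells 2, 471 and 78, and nonclassical monocyte-like cells 41, 381 and 139. Conventional dendritic-like cells numbered 13 in the aged and 4 in the aged-GA library, and plasmacytoid dendritic-like cells 8 and 4. Of the 8851 young cells 0 passed either dendritic gate, which allows a share of up to 0.0339% for each. Between 24 and 34 kept barcodes were shared by each pair of libraries, and cells scored as doublets, 4.41% to 5.32% of each library, were kept.

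Of the 10 genes, 8 lie close together in the class II region of chromosome 17 (build GRCm38, GENCODE annotation), in the order H2-Oa at chr17:34092340-34095234, H2-DMa at chr17:34119541-34139101, H2-DMb2 at chr17:34143307-34151555, H2-DMb1 at chr17:34153072-34160230, H2-Ob at chr17:34238903-34254414, H2-Ab1 at chr17:34257689-34269419, H2-Aa at chr17:34282744-34287823 and H2-Eb1 at chr17:34305867-34316674. H2-Aa is on the minus strand and the other 7 on the plus strand. Ciita lies at chr16:10480059-10528418 on the plus strand, and Cd74 is on another chromosome. H2-DMa overlaps 4 annotated genes, with Brd2, CR974462.4 and the pseudogene Gm20493 on the opposite strand and CR974462.3 on its own strand. Ciita overlaps Dexi on the opposite strand.

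Upstream stretches with the Y box letters GATTGG and the X box letters AAC and, after any 2 bases, ATGATG are shown because these boxes are where CIITA's partner factors are known to bind. RefSeq promoter windows (GRCm38.p6) were matched for 7 members, and the 250 bases before each start site were searched on both strands, with letters chosen after the sequences were seen. GATTGG was in 4783 of 32851 windows (14.6%), the longer motif in 39 (0.119%) and both in 10 (0.0304%). H2-DMb1, H2-DMb2, H2-Eb1 and H2-Ob held both, and H2-Aa, H2-Oa and 1 of the 2 windows of H2-DMa held GATTGG without the other. The 10 windows with both belonged to 8 genes, the 4 members and Gm38969, Nubp2, Olfr582 and Spsb3. The stretches of H2-DMb1 and H2-Oa fall in an annotated first exon and are not printed. That of H2-DMa, where GATTGG began 199 bases before the start site, is not printed either. The 4 stretches printed run 5′ to 3′ toward their gene, at chr17:34145103-34145178 (plus strand), chr17:34238792-34238867 (plus strand), chr17:34305752-34305827 (plus strand) and chr17:34287852-34287927 (minus strand). GATTGG is in capitals, as is the longer motif where it was found.
H2-DMb2: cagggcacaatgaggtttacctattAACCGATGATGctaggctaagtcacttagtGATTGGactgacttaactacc
H2-Ob: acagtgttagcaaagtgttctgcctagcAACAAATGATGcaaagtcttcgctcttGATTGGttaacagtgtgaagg
H2-Eb1: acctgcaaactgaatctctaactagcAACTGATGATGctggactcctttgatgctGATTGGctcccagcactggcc
H2-Aa: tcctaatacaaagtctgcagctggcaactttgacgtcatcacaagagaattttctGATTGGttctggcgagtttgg
GATTGG began 91, 58, 60 and 49 bases before the start site of H2-DMb2, H2-Ob, H2-Eb1 and H2-Aa. In the 3 genes with both motifs, 19, 16 and 18 bases lay between them, so the layout was much alike in an H2-DM gene, an H2-DO gene and a classical beta chain gene. A match of letters is a description and not a binding site, and windows of Cd74, H2-Ab1 and Ciita were not analysed here.

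B-like cells held most class II mRNA of each library. Their part of a library's class II UMIs was 82.4%, 69.8% and 69.7% (young, aged, aged-GA), against 17.5%, 23.5% and 26.8% of all UMIs. The summed level of the 10 genes, in UMIs per 1000000 UMIs of the class (counts per 1000000, CPM), was 29966 for young, 28071 for aged and 30370 for aged-GA B-like cells. Conventional dendritic-like cells reached the same range, with 25581 CPM in the aged and 28365 CPM in the aged-GA library. Cells with monocyte markers that passed neither subset gate, called other monocyte-like, were at 8603 CPM in the aged (46 cells) and 26385 CPM in the aged-GA library (11 cells). These sums came from few cells, as 5 aged and 3 aged-GA cells held 87.3% and 99.0% of the class's class II UMIs. The median other monocyte-like cell had 6.58 (aged) and 9.57 (aged-GA) class II UMIs per 10000 of its UMIs, far below the median B-like cell. Plasma cell-like cells were at 4970 and 6708 CPM (25 and 16 cells), and platelet-like cells at 4044 and 6622 CPM (13 and 16 cells). In the platelet-like class 1 cell held 91.6% of the class II UMIs in the aged and 69.5% in the aged-GA library. The median platelet-like cell had 3.38 and 5.11 class II UMIs per 10000. The aged platelet-like cells also carried medians of 9 shared and 8 classical monocyte markers. Plasmacytoid dendritic-like cells were at 3085 and 4568 CPM, nonclassical monocyte-like cells at 1115, 2035 and 1933 CPM in young, aged and aged-GA libraries, and classical monocyte-like cells at 1264 CPM (aged) and 4311 CPM (aged-GA). The summed level of the nonclassical cells was thus above that of the classical ones in the aged library and below it in the aged-GA library. In the latter 10 of the 78 classical cells held 80.2% of that class's class II UMIs. In the aged library 11 of the 381 nonclassical cells held 56.0% of theirs. The median nonclassical cell of the aged library was not above the classical one, at 4.03 against 4.39 class II UMIs per 10000. T-like cells were at 97.3, 233 and 298 CPM, and NK-like cells at 82.6, 273 and 391 CPM.

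Cells with haemoglobin genes above 5% of their UMIs, called red cell-like, summed to 1092, 4779 and 4085 CPM. Their B cell receptor gene Cd79a was at 4.01%, 16.6% and 13.5% of its B-like level, so the class held B cell mRNA as well. Part of the class was high in class II mRNA. In the young library 14 among 504 red cell-like cells had at least 100 class II UMIs per 10000. The aged library had 323 such cells among 1243, and the aged-GA library 360 among 1946. Such cells carried 25.5% (young), 70.05% (aged) and 75.9% (aged-GA) of the class's class II UMIs. How many B cells the haemoglobin limit set aside was not tested. The class II UMIs of all red cell-like cells (2.25%, 9.87% and 7.85% of each library's) are not counted to any leukocyte class. Cells with both B and T markers held a further 11.9%, 5.92% and 10.4%, and cells that passed no gate 2.48%, 10.2% and 10.2%.

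**Figure D1:**
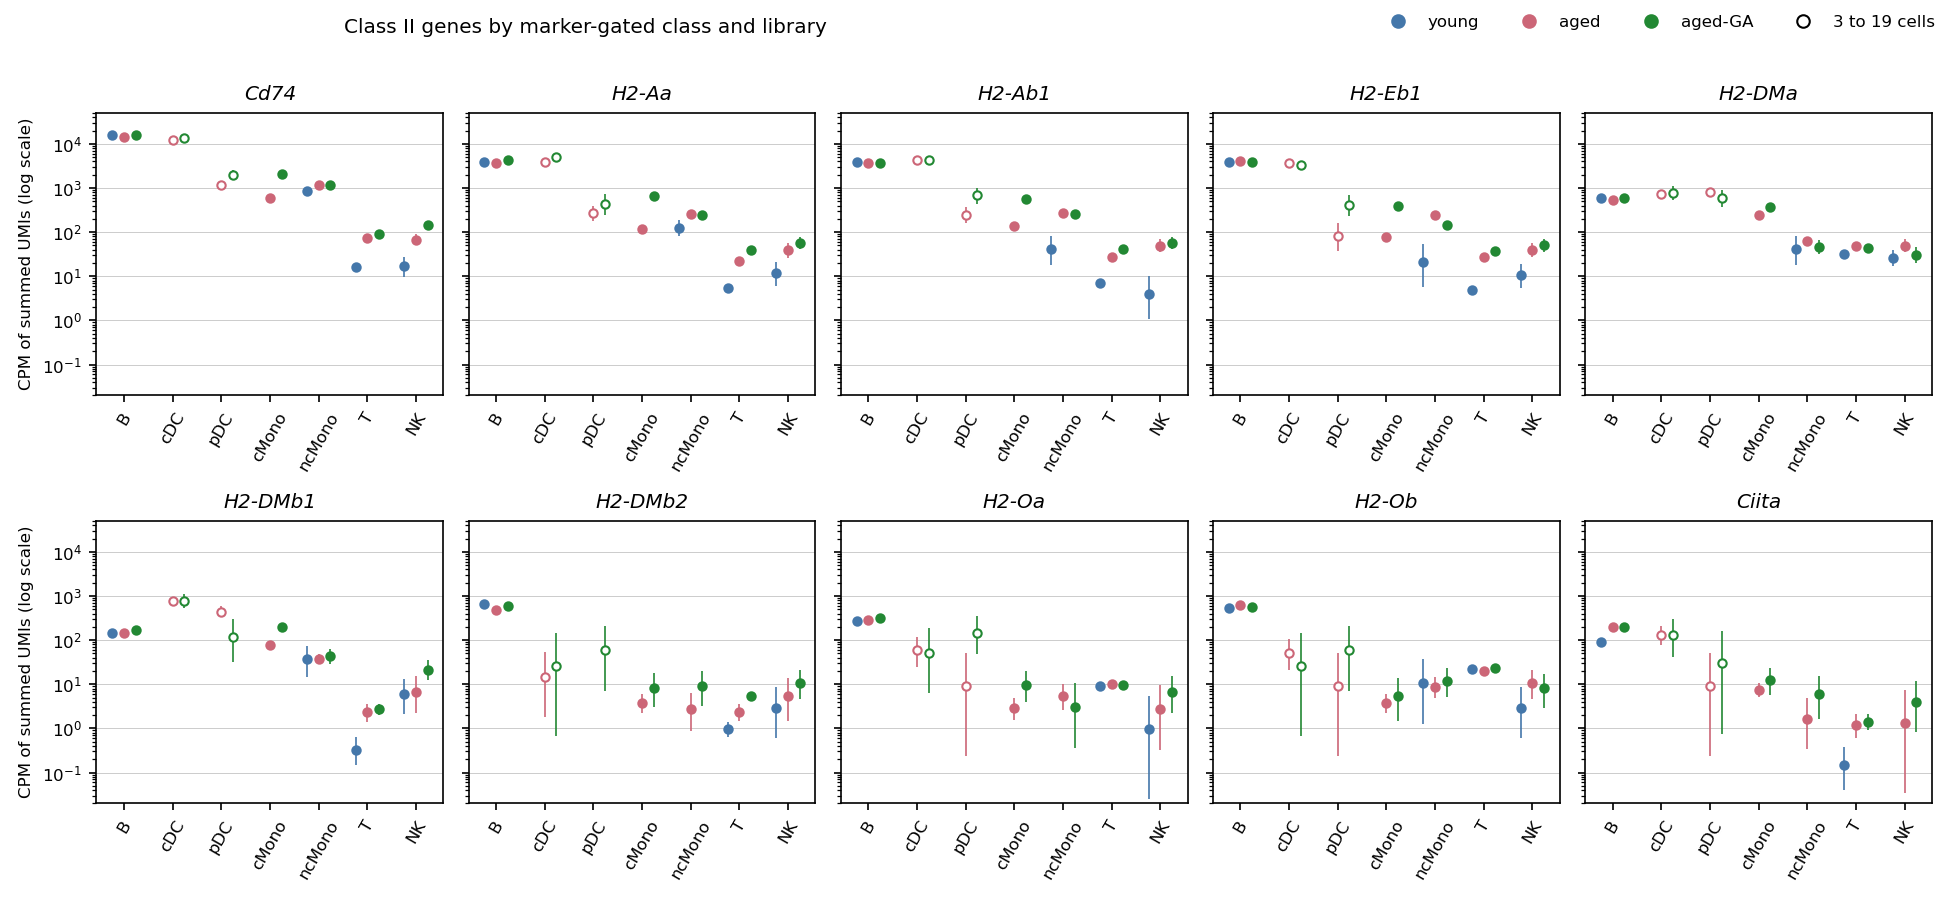
Level of each class II gene (vertical axis, CPM of summed UMIs, log scale) in 7 marker-gated classes (B, B-like; cDC and pDC, conventional and plasmacytoid dendritic-like; cMono and ncMono, classical and nonclassical monocyte-like; T; NK) of the young, aged and aged-GA libraries; bars are exact 95% Poisson intervals, open points classes of 3 to 19 cells, and levels of 0 and classes of fewer than 3 cells are not drawn. Cd74 and the chains are near their B-like level in conventional dendritic-like cells, H2-DMb2 is far below it in every other class drawn, and Ciita of B-like cells is lower in the young than in the other 2 libraries.

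Almost every B-like cell carried class II mRNA. The median cell had 307, 284 and 307 class II UMIs per 10000 of its UMIs in the young, aged and aged-GA libraries, with cells running from 13.8 to 638, from 0 to 745 and from 10.4 to 627. At least 100 per 10000 were found in 99.5%, 99.1% and 99.6% of them. The per-cell distributions of the 3 libraries overlapped almost wholly, with the aged one slightly to the left.

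Cd74, the invariant chain, stood at 15899 CPM in B-like cells of the young library, 14356 CPM in those of the aged and 16014 CPM in those of the aged-GA library. Its log2 ratio was -0.15 (-0.16 to -0.14) for aged over young and 0.16 (0.15 to 0.17) for aged-GA over aged. These differences are beyond counting error, yet stayed within 1.5-fold, the size used here to single out a gene. Cd74 made up 53.1%, 51.1% and 52.7% of the class II UMIs of B-like cells.

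The alpha chain gene H2-Aa stood at 3962, 3612 and 4251 CPM in young, aged and aged-GA B-like cells, and its partner beta chain gene H2-Ab1 at 3958, 3679 and 3724 CPM. H2-Eb1, the beta chain gene of H2-E, stood at 3813, 4133 and 3932 CPM. No gene counted here carried the symbol of its partner alpha chain gene, H2-Ea, so these values are not the level of a pair. The libraries' order was therefore not the same for the 3 chains: the aged library was lowest for H2-Aa and H2-Ab1 and highest for H2-Eb1. Their log2 ratios of aged over young were -0.13, -0.11 and 0.12, and of aged-GA over aged 0.24, 0.02 and -0.07. All lay within 1.5-fold.

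H2-DM, the peptide editor, is built from H2-DMa and either H2-DMb1 or H2-DMb2. H2-DMa was at 608, 537 and 603 CPM in young, aged and aged-GA B-like cells, and H2-DMb1 at 145, 147 and 174 CPM. For H2-DMb2 the young library gave 675 CPM (658 to 693), the aged 486 CPM (474 to 498) and the aged-GA 599 CPM (589 to 610). H2-DMb2 was thus highest in the young and lowest in the aged library, with the aged-GA library between them and no overlap of intervals. Its log2 ratio of aged over young was -0.47 (-0.53 to -0.42), above that of 3.50% of the genes compared, and that of aged-GA over aged was 0.30 (0.26 to 0.35), higher than that of 94.6% of the genes compared. Neither reached 1.5-fold.

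After each cell was thinned to 500 UMIs, a UMI of H2-DMb2 was found in 25.8%, 21% and 25.4% of B-like cells (young, aged, aged-GA), against 0.0965%, 0% (0 of 1894 cells, which allows up to 0.158%) and 0.388% of T-like cells. Without thinning the shares were 87.2%, 76.3% and 87.1% of B-like cells at median depths of 3387, 3036 and 3717 UMIs, and 0.521%, 1.16% and 3.07% of T-like cells at 4999, 4459 and 5605 UMIs. The lower share in the aged library was seen at equal depth too.

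The H2-DO chains, which restrain H2-DM, were H2-Oa at 277, 290 and 322 CPM and H2-Ob at 534, 629 and 555 CPM in young, aged and aged-GA B-like cells. H2-Oa differed little from library to library, with log2 ratios of 0.07 (-0.01 to 0.14) for aged over young and 0.15 (0.09 to 0.21) for aged-GA over aged. H2-Ob had ratios of 0.24 (0.18 to 0.29) and -0.18 (-0.22 to -0.14), opposite in sign to those of H2-DMb2.

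Ciita, the transactivator, was the member with the widest gap between libraries. Its level in B-like cells was 92.9 CPM (86.5 to 99.6, from 785 UMIs) in the young, 201 CPM (193 to 209, from 2539 UMIs) in the aged and 194 CPM (188 to 200, from 3953 UMIs) in the aged-GA library. The aged and aged-GA levels overlapped within counting error, and the young level was below both. The log2 ratio was 1.11 (1.00 to 1.23) for aged over young, 1.06 (0.95 to 1.18) for aged-GA over young and -0.05 (-0.12 to 0.02) for aged-GA over aged. The ratio of aged over young was higher than that of 97.3% of the genes compared.

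At 500 UMIs per cell, Ciita was found in 5.01% (4.14% to 6.0%), 10.9% (9.88% to 11.9%) and 9.21% (8.41% to 10.1%) of B-like cells (young, aged, aged-GA), against 0% (0 of 5182 cells, which allows up to 0.0579%), 0.158% and 0.106% of T-like cells. Unthinned, 27.7%, 44.2% and 50.1% of B-like cells carried a UMI. The order of aged and aged-GA libraries turned with thinning, while the young library was lowest both ways.

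The B-like cells of the libraries fell mostly in different clusters: 86.3% of the young ones lay in a cluster that held few aged cells, and 83.7% of the aged and 84.2% of the aged-GA ones in another. The clusters were made without the members, and 4 of them held at least 20 B-like cells of every library, so that Ciita could be compared within each. In the cluster of most young B-like cells Ciita was at 96.7 CPM in the young (1913 cells), 175 CPM in the aged (31 cells) and 178 CPM in the aged-GA library (130 cells). In the cluster of most aged B-like cells it was at 92.6 CPM (115 cells), 217 CPM (3130 cells) and 206 CPM (4098 cells). The other 2 clusters gave 48.2, 137 and 140 CPM, and 64.6, 142 and 138 CPM. Ciita was thus lower in the young library inside all 4 clusters, while the young and aged intervals met in the first of them (89.6 to 104 and 97.7 to 288 CPM).

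H2-DMb2 was lower in the aged than in the young library within the same 4 clusters. It was at 695, 442 and 588 CPM in young, aged and aged-GA cells of the cluster of most young B-like cells, at 620, 501 and 606 CPM in that of most aged ones, and at 644, 524 and 616 CPM and 503, 324 and 462 CPM in the other 2. The aged-GA level lay between the others each time, but its interval overlapped the young one in 3 of the 4 clusters and the aged one in the other, and in the cluster at 644, 524 and 616 CPM the young (544 to 757) and aged (484 to 565) intervals overlapped as well.

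Of the 10 members, 1 (Ciita) was past 1.5-fold higher and 0 past 1.5-fold lower in aged over young B-like cells, where 25.1% of 8629 genes with at least 100 UMIs were past the fold in either direction, 22.9% higher and 2.26% lower. The member count is below that background. The median log2 ratio was -0.05 over the members, 5 above and 5 below 0, and 0.28 over all genes compared. In aged-GA over aged B-like cells 0 of 10 members were past the fold, against 1.84% of 9405 genes, 0.702% higher and 1.14% lower, with a median of 0.15 over the members (7 above and 3 below 0) and -0.05 over all genes. The summed class II level had log2 ratios of -0.09 (-0.10 to -0.09) and 0.11 (0.11 to 0.12), and of 0.02 for aged-GA over young. In that last pair Ciita alone of the 10 was past the fold, against 16.7% of 9134 genes, 14.8% higher and 1.89% lower. The comparisons share the aged library, so a high or low value there moves both in opposite directions.

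**Figure D2:**
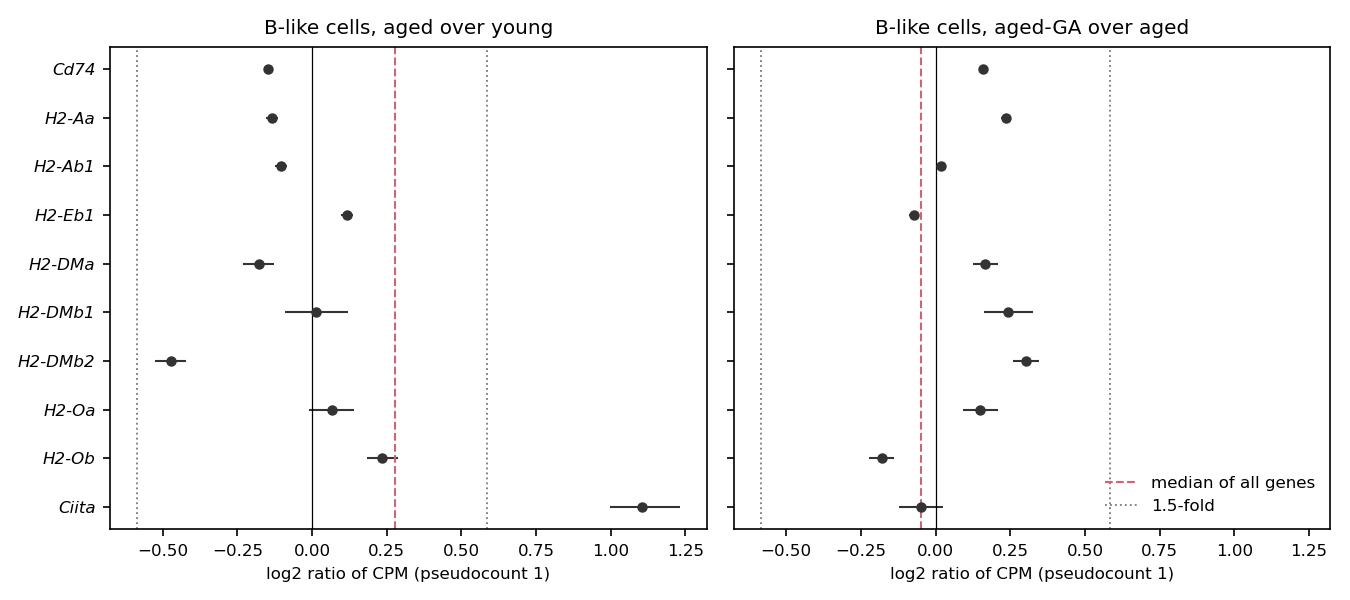
Log2 ratio of CPM (pseudocount 1 CPM, horizontal axis) of each class II gene in B-like cells, for aged over young on the left and aged-GA over aged on the right; bars are 95% counting intervals, dotted lines mark 1.5-fold either way and the dashed line is the median of all genes compared. Ciita is beyond the 1.5-fold line on the left, and all members are within it on the right.

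Other genes of the pathway were read in the same B-like cells. Of 10 factors that act with CIITA or on its targets, 3 were past 1.5-fold higher in aged over young, a share near the 22.9% of all genes: Rfx5, a subunit of the RFX complex that binds the X box, at 11.7 and 24.9 CPM (log2 ratio 1.03), Nfya, a subunit of the Y box factor NF-Y, at 16.1 and 31.8 CPM (0.94), and Creb1, which also binds next to the X box, at 45.9 and 77.2 CPM (0.74). The other 7 lay within the fold, and the list's median of 0.37 was a little above that of all genes. In aged-GA over aged 0 of the 10 were past the fold, with Rfx5 at 20.2 CPM, Nfya at 28.5 CPM and Creb1 at 67.9 CPM in the aged-GA library. Rfx5, Nfya and Creb1 were lowest in the young library, but that they were below the aged one follows from how they were singled out. The median log2 ratio of all genes compared was above 0 as well, at 0.28 for aged over young and 0.22 for aged-GA over young.

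Of 10 lysosomal processing genes, 2 were past the fold in aged over young B-like cells, no more than the 22.9% of all genes past it higher: Ifi30, a thiol reductase that opens disulphide bonds of antigens, at 240 and 402 CPM (log2 ratio 0.74), and the protease gene Ctsb at 30.5 and 50.7 CPM (0.71). The list's median was 0.0049, with 5 genes above and 5 below 0, and 0 of 10 were past the fold in aged-GA over aged. Of the genes for turnover and costimulation with enough UMIs, 1 of 5 was past the fold in aged over young (Icosl, a ligand of a T cell costimulatory receptor, 28.0 and 55.6 CPM) and 1 of 6 in aged-GA over aged (Cd86, another costimulatory ligand, 42.0 and 69.9 CPM, log2 ratio 0.72). All genes were past the fold in 25.1% of cases in the former comparison and 1.84% in the latter. H2-Eb2, a neighbour of H2-Eb1 in the class II region, had log2 ratios of 0.04 for aged over young and 0.03 for aged-GA over aged.

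Within B-like cells, those carrying both Fcrl5, a surface receptor of marginal zone and innate-like B cells, and Zbtb20, a transcription factor of plasma cell differentiation, had a lower summed class II level than those carrying neither. The level was 23900 against 31049 CPM in the young (30 and 1589 cells), 26420 against 28470 CPM in the aged (56 and 2535 cells) and 28031 against 30937 CPM in the aged-GA library (93 and 3009 cells). Cells with both genes were deeper, with median depths of 6692 against 3307, 5270 against 2963 and 6367 against 3574 UMIs, and the part of depth was not tested. Cells with more lambda than kappa light chain UMIs were lower as well, at 26095, 26172 and 28956 CPM against 30284, 28307 and 30478 CPM. Ciita was lower in the young library in each of these subsets, for example at 66.6, 188 and 169 CPM in lambda cells and 95.04, 202 and 196 CPM in kappa cells of the young, aged and aged-GA libraries.

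Few cells passed the conventional dendritic gate, and their summed class II level was near that of B-like cells. At least 100 class II UMIs per 10000 were found in 11 of the 13 aged and 3 of the 4 aged-GA cells. The lowest cells had 13.6 and 40.4 per 10000. A cluster named conventional dendritic-like from the same markers held more cells, 75 aged and 47 aged-GA. Of the gated cells, 12 aged and 4 aged-GA ones lay in it. The small numbers thus depend on the gate, and the levels below are those of the gated cells alone. In the 13 aged and 4 aged-GA cells, Cd74 was at 12163 and 13843 CPM, H2-Aa at 3816 and 5093 CPM, H2-Ab1 at 4239 and 4257 CPM and H2-Eb1 at 3590 and 3369 CPM. Ciita was at 131 CPM in both, from 18 and 5 UMIs. The gate asked for Flt3 and at least 4 dendritic markers, and 8 of the 13 aged cells had just 4 markers. These cells differed from B-like cells in the accessory genes. H2-DMb1 was at 781 and 784 CPM, above its B-like level of 147 and 174 CPM. H2-Oa, at 58.4 and 52.2 CPM (8 and 2 UMIs), and H2-Ob, at 51.1 and 26.1 CPM (7 and 1 UMIs), were below their B-like levels. In the aged library the intervals of the classes did not overlap for any of these 3 genes. In aged-GA over aged cells 0 of the 6 members with at least 100 UMIs were past 1.5-fold, against 18.7% of 241 genes, 9.54% higher and 9.13% lower, and the summed level had a log2 ratio of 0.15 (0.05 to 0.25).

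Plasmacytoid dendritic-like cells of the aged library had another make-up. In the 8 aged cells H2-DMa was at 819 CPM (658 to 1008) and H2-DMb1 at 442 CPM (326 to 586), as high as or above B-like cells, but Cd74 was at 1197 CPM, H2-Aa at 267 CPM, H2-Ab1 at 249 CPM and H2-Eb1 at 82.9 CPM, far below them. Ciita had 1 UMI in these cells. The 4 aged-GA cells had Cd74 at 2017 CPM and H2-DMa at 593 CPM. H2-DMb1 was at 119 CPM (32.3 to 304, from 4 UMIs) in them, an interval that held the B-like level of 174 CPM. Among these 4 cells 1 held 51.3% of the class II UMIs, so the make-up was not placed in the aged-GA library.

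In classical monocyte-like cells, the Ly6c2-bearing cells recruited to inflamed tissue, the chains were higher in the aged-GA than in the aged library. Cd74 stood at 590 CPM over the 471 aged and 2071 CPM over the 78 aged-GA cells (log2 ratio 1.81), H2-Aa at 117 and 666 CPM (2.50), H2-Ab1 at 136 and 574 CPM (2.07) and H2-Eb1 at 79.5 and 387 CPM (2.27). H2-DMb1 was at 78.8 and 203 CPM (1.35), and H2-DMa, at 245 and 374 CPM (0.61), just past the fold. All 6 members with at least 100 UMIs were past 1.5-fold higher, against 4.31% of 5412 genes past it in that direction, 5.14% in the other and 9.44% in either, and the summed level had a log2 ratio of 1.77 (1.71 to 1.83). H2-DMb2, H2-Oa, H2-Ob and Ciita had 4 to 9 UMIs in aged-GA cells and were not read. The 2 young cells of the class, with 178 class II UMIs between them, were not compared.

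A small share of the cells held a large share of these UMIs. Cells with at least 100 class II UMIs per 10000, a limit set after the data were seen, numbered 12 of 471 in the aged library (2.55%, 1.32% to 4.41%) and 10 of 78 in the aged-GA library (12.8%, 6.32% to 22.3%). They held 39.5% and 80.2% of the class's class II UMIs. Without them the summed level was 786 CPM over 459 aged and 977 CPM over 68 aged-GA cells, a log2 ratio of 0.31 in place of 1.77; these cells were set aside by the level that is compared, so the value is a description. The median cell of the class had 4.39 and 6.09 class II UMIs per 10000. The limit cuts a range: 15 aged and 2 aged-GA cells lay between 50 and 100 per 10000, and 7 and 3 between 100 and 200.

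The cells above the limit carried monocyte markers and the dendritic genes unevenly. The gate of the class asked for at least 5 of 9 classical monocyte markers, Ly6c2 among them. It allowed at most 1 B cell marker, from a list with Cd79a and Ms4a1, and cells of the dendritic gates were taken out before. Monocyte and B cell markers in these cells are thus in large part set by the gate. Ly6c2 was found in 12 of the 12 aged and 10 of the 10 aged-GA cells, with a median of 4 and 3 UMIs per cell against 10 and 8 in the cells below the limit. H2-DMb1 was found in all of them, and Ciita in 6 aged and 6 aged-GA cells. Both genes belong to the sum by which these cells were picked, so finding them is in part set by the limit. The dendritic marker Cd209a, a C-type lectin, was found in 3 of 12 aged cells (11 UMIs) and 6 of 10 aged-GA cells (67 UMIs), and Flt3, the dendritic growth factor receptor, in 7 and 4 cells. Zbtb46, a transcription factor of conventional dendritic cells, and Ms4a1, a B cell surface gene, had 0 UMIs in both, and Cd79a had 0 UMIs in the aged and 1 UMI in the aged-GA cells. Median depths were 9878 and 8636 UMIs above the limit against 9409 and 9029 below it. Of the other pathway genes in the class, 0 of 6 CIITA partner factors and 0 of 10 lysosomal genes were past the fold, and Cd86 was past it (log2 ratio 0.78).

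**Figure D3:**
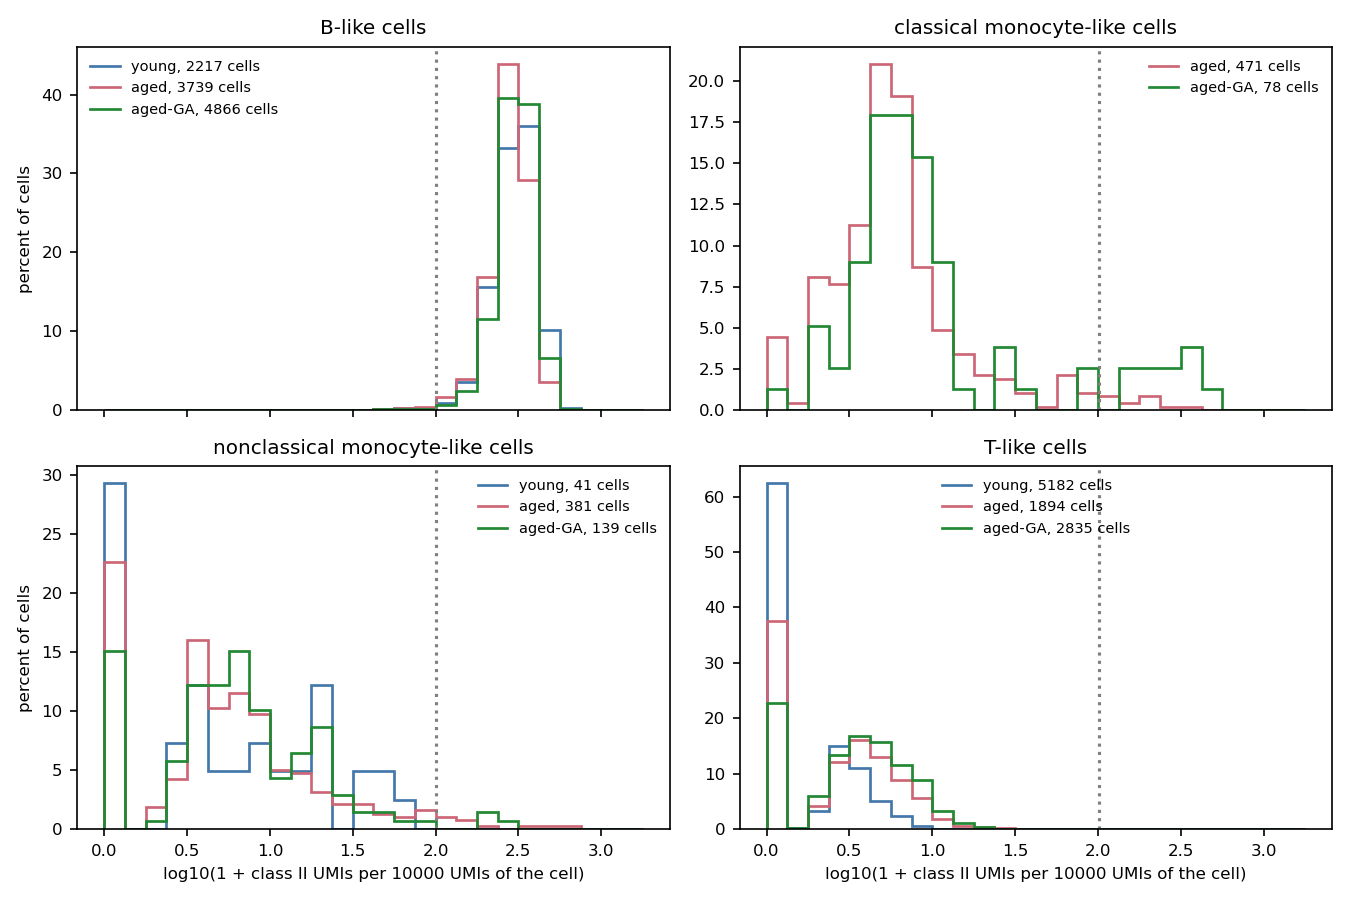
Share of cells (vertical axis, percent of the class in a library) by class II UMIs per 10000 UMIs of the cell (horizontal axis, log10 of 1 plus the value) in 4 classes, with the dotted line at 100 per 10000 and libraries with fewer than 20 cells of a class left out. B-like cells lie almost wholly to the right of the line and T-like cells to its left, and monocyte-like cells lie to the left with a thin tail across it, of 12 aged and 10 aged-GA classical and 11 aged and 3 aged-GA nonclassical cells.

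Nonclassical monocyte-like cells, the vessel-patrolling subset, could be compared over all 3 libraries, though the young one had 41 cells. Cd74 stood at 837, 1140 and 1165 CPM (young, aged, aged-GA). H2-Aa was at 126, 263 and 250 CPM, H2-Ab1 at 41.9 (8 UMIs), 275 and 257 CPM, and H2-Eb1 at 20.9 (4 UMIs), 240 and 142 CPM. The chains were lowest in the young library, while H2-DMa, at 41.9, 61.4 and 46.3 CPM, and H2-DMb1, at 36.6, 37.8 and 43.4 CPM, had overlapping intervals in all libraries.

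In aged over young cells 3 of 5 members with at least 100 UMIs were past 1.5-fold higher, against 21.1% of 3141 genes in either direction, 14.5% higher and 6.53% lower. Their log2 ratios were 1.06 (0.47 to 1.72) for H2-Aa, 2.69 (1.72 to 3.93) for H2-Ab1 and 3.46 (2.15 to 5.40) for H2-Eb1, and the summed level had 0.87 (0.67 to 1.07). These 3 genes had 24, 8 and 4 UMIs in the young and 479, 501 and 437 in the aged cells. They passed the minimum of 100 UMIs through the aged cells alone, where they were high, so the count of 3 of 5 is a description. With clusters in place of gates the ratio of the sum was -0.88, so its direction depended on how the class was drawn. Cells above 100 class II UMIs per 10000 numbered 0 among the 41 young, 11 among the 381 aged and 3 among the 139 aged-GA cells, and held 56.0% of the aged and 44.6% of the aged-GA class II UMIs. Without them the sums were 1115, 943 and 1113 CPM, a description, since no young cell could be set aside and the aged sum could only become lower. B cell mRNA was read as well: Cd79a had 0 UMIs in the young cells (interval up to 19.3 CPM) and was at 18.6 CPM in the aged and 28.4 CPM in the aged-GA cells. The young interval thus reached the aged level. The part of B cell mRNA in the result was not tested.

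In aged-GA over aged nonclassical cells 1 of 5 members, H2-Eb1, was past 1.5-fold lower (log2 ratio -0.75, -1.09 to -0.43), against 6.46% of 3716 genes in either direction, 3.26% higher and 3.2% lower. The summed level had a log2 ratio of -0.07 (-0.17 to 0.02). Under the limit of 100 per 10000 H2-Eb1 had 54.3 CPM among aged and 57.5 CPM among aged-GA cells, and with clusters in place of gates its ratio was 0.64.

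The make-up of the H2-DM beta chain differed between B-like cells and the monocyte-like and conventional dendritic-like classes. H2-DMb2 gave 82.3% (81.4% to 83.2%) of the UMIs of the H2-DMb1 and H2-DMb2 pair in B-like cells of the young library, 76.8% (75.9% to 77.7%) in those of the aged and 77.5% (76.8% to 78.2%) in those of the aged-GA library. In classical monocyte-like cells it gave 4.55% (2.67% to 7.18%, 17 of 374 UMIs) in the aged and 3.92% (1.45% to 8.34%) in the aged-GA library. Conventional dendritic-like cells were at 1.84% (0.22% to 6.47%) and 3.23% (0.0816% to 16.7%), and the 8 aged plasmacytoid dendritic-like cells had 48 UMIs of H2-DMb1 and 0 of H2-DMb2 (up to 7.40%). Nonclassical monocyte-like cells had 5 UMIs of H2-DMb2 beside 69 of H2-DMb1 in the aged and 6 beside 29 in the aged-GA library.

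The 4 aged-GA plasmacytoid dendritic-like cells had 2 UMIs of H2-DMb2 beside 4 of H2-DMb1, too few to place the share (4.33% to 77.7%). Neutrophil-like cells were at 14.6% (6.07% to 27.8%) in the aged and 45.5% (24.4% to 67.8%) in the aged-GA library, below B-like cells but above the classical monocyte-like ones in the latter. The share therefore differed between B-like and conventional dendritic-like cells although both carried Cd74 and the chains at like levels. Plasma cell-like cells were at 80.0% and 73.3% in the aged and aged-GA libraries, as B-like cells were, and red cell-like cells, which held B cell mRNA, at 85.8%, 71.2% and 75.5%. With clusters in place of gates, an alternative chosen after seeing the data, the share of classical monocyte-like cells was 17.8% and 16.0%, and that of nonclassical ones 64.1%, 47.4% and 54.1%. In the B-like cells the share was lower in the aged and aged-GA libraries than in the young one, with intervals apart. The longest coding transcripts of both genes were 68.8% identical over their whole length and 64.6% identical over their last 300 bases, where 3′ reads fall. Of the stretches of 91 bases of H2-DMb1, 206 of 1314 were also in H2-DMb2 over the whole transcript and 0 of 210 in the last 300 bases.

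**Figure D4:**
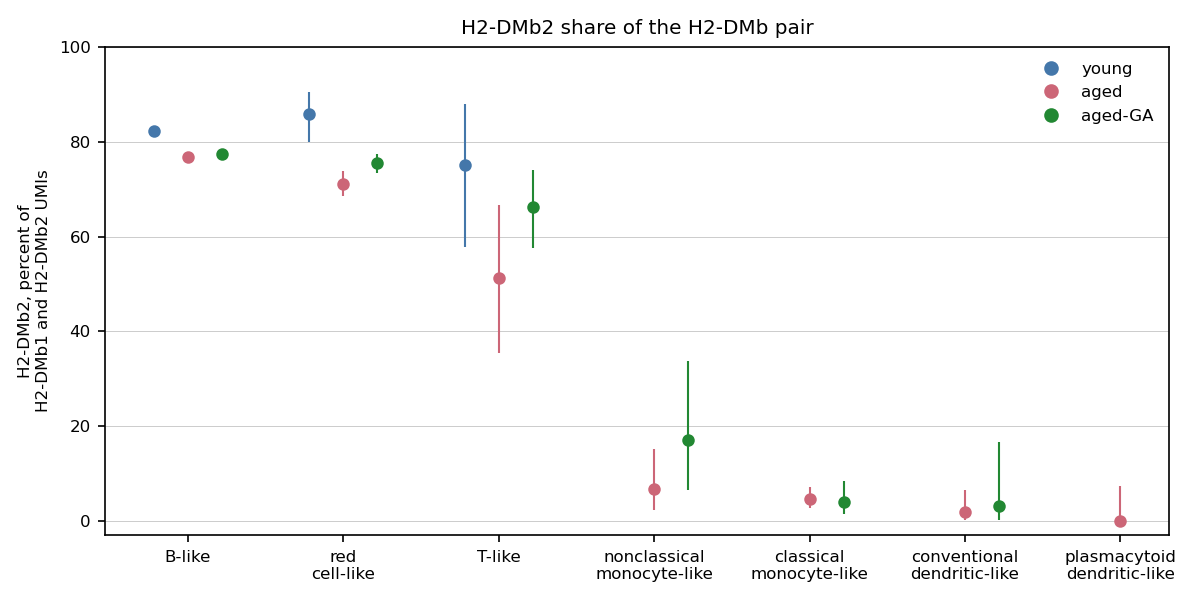
H2-DMb2 as a share of H2-DMb1 and H2-DMb2 UMIs (vertical axis, percent) in classes with at least 25 UMIs of the pair, by library; bars are exact 95% binomial intervals. B-like cells lie between 76.8% and 82.3%, and classical monocyte-like and conventional dendritic-like cells below 5%.

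T-like cells served as the class that should lack the pathway in mice, and most members were at or under 1.57% of their B-like level there. Relative to B-like cells of the same library, Cd74 in T-like cells stood at 0.102%, 0.510% and 0.579%, H2-Aa at 0.135%, 0.603% and 0.942%, and H2-DMb2 at 0.146%, 0.496% and 0.888% in young, aged and aged-GA libraries. The B cell gene Cd79a stood at 0.0819%, 0.320% and 0.448%. Cd74, H2-Aa, H2-DMb2 and Cd79a had the same order of libraries, lowest in the young one. In T-like cells 5 of 7 members with at least 100 UMIs were past 1.5-fold higher in aged over young. Of 9240 genes, 32.1% were past it in either direction, 29.4% higher and 2.65% lower. In aged-GA over aged 3 of 8 members were past it higher, against 2.72% of 9011 genes in either direction, 0.744% higher and 1.98% lower. Among these 8, H2-DMb2 had 22 UMIs (2.41 CPM) in the aged and 90 (5.32 CPM) in the aged-GA library. It passed the minimum of 100 UMIs through the aged-GA cells, where it was high, so the count of 3 of 8 is a description.

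H2-DMa, H2-Oa and H2-Ob stood higher. They were at 5.21%, 8.97% and 7.31%, at 3.29%, 3.47% and 2.96%, and at 4.06%, 3.13% and 4.14% of their B-like levels. In the young library, where Cd79a and Cd74 of T-like cells were lowest, T-like cells held 594 UMIs of H2-Ob (21.7 CPM), 869 of H2-DMa (31.7 CPM) and 250 of H2-Oa (9.12 CPM). At the B-like ratio of each gene to Cd74, the 444 Cd74 UMIs of those cells would go with 14.9, 17.0 and 7.75 UMIs. H2-DMb2, with 27 UMIs against 18.9 at that ratio, was within counting error of it, while the aged-GA library had 90 against 58.7. The aged library gave 180 UMIs against 29.3 for H2-Ob, 440 against 25.04 for H2-DMa and 92 against 13.5 for H2-Oa, and the aged-GA library 389 against 54.4, 746 against 59.1 and 161 against 31.6. The level of H2-Ob and H2-Oa in T-like cells was much the same in the 3 libraries, at 21.7, 19.7 and 23.0 CPM and at 9.12, 10.1 and 9.52 CPM, while Cd74 went from 16.2 to 73.3 and 92.8 CPM.

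At 500 UMIs per cell H2-Ob was found in 1.25%, 1.21% and 0.988% of young, aged and aged-GA T-like cells, and Ciita in 0%, 0.158% and 0.106%. Unthinned, H2-Ob was in 10.1%, 8.55% and 11.9% of T-like cells. NK-like cells had H2-Ob at 2.95 CPM (0.61 to 8.62), 10.7 CPM (4.64 to 21.2) and 8.05 CPM (2.96 to 17.5), so the young NK-like interval lay below the young T-like level, and that of the aged library reached it. H2-DMa was at 26.6, 49.7 and 30.9 CPM in NK-like cells, as in T-like cells.

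T-like cells with a UMI of Cd8a or Cd8b1 and none of Cd4 were set beside those with Cd4 and none of the Cd8 genes. H2-Oa was at 16.2 CPM (14.0 to 18.6) in Cd8 cells and 3.62 CPM (2.14 to 5.71) in Cd4 cells of the young library, at 13.3 and 8.21 CPM in the aged and at 11.5 and 6.40 CPM in the aged-GA library. H2-DMa was at 44.7 and 16.7 CPM in young Cd8 and Cd4 cells, at 52.6 and 43.8 CPM in aged and at 45.5 and 37.1 CPM in aged-GA ones. H2-Ob did not differ this way, with 22.0 and 23.1 CPM in young Cd8 and Cd4 cells. H2-Oa and H2-DMa were thus higher in Cd8 cells, clearly so in the young library, and intervals of both overlapped between Cd8 and Cd4 cells in the aged and aged-GA libraries. Brd2, on the strand opposite to H2-DMa, was at 177 and 195 CPM in young Cd8 and Cd4 cells.

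**Figure D5:**
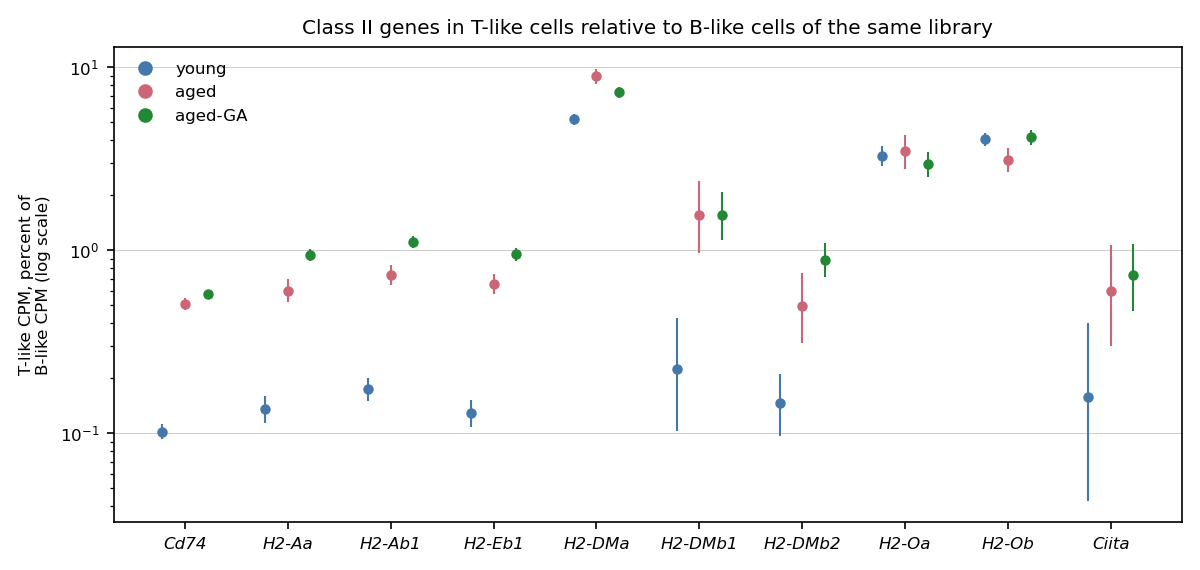
Level of each class II gene in T-like cells as a percentage of its level in B-like cells of the same library (vertical axis, log scale), with intervals from the counts of the T-like cells. H2-DMa, H2-Oa and H2-Ob lie between 2.96% and 8.97% in all libraries, and the other members between 0.102% and 1.57%, lowest in the young library.

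Genes whose level followed the summed class II level most closely were sought over 19 class and library points, by Spearman's rho over 3162 genes other than the members. The points share libraries, depth and free mRNA, so the values are a description. Bcl11a, a transcription factor of B cells and plasmacytoid dendritic cells, had 0.942, Cd83, a surface protein that stabilises class II, had 0.918, Dennd5b had 0.887, March1, the ubiquitin ligase that removes class II from the surface, had 0.881 and Lmo2, a transcription cofactor, had 0.877. Bcl11a was at 128, 203 and 190 CPM in young, aged and aged-GA B-like cells, and March1 at 196, 196 and 199 CPM.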

How the data were processed

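PBMCs of 3 groups of mice were sequenced, 1 library each. Per the labels, the submitters' processing notes and the matrix header name Cell Ranger 5.0.0 and build mm10, and the deposited values are raw UMI counts per gene and barcode, not normalized. The matrices hold 10842, 16038 and 17332 barcodes with 58894294, 82260961 and 98155671 UMIs (young, aged, aged-GA).

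Barcodes were kept if they had 200 genes or more, no more than 90% of their library's highest gene number and up to 7.5% mitochondrial UMIs, a rule taken from the study's methods. The study reports other cell numbers for each group, so the kept cells are not the study's own set. Its methods also name an earlier version of Cell Ranger. Cells were gated by the number of detected markers per class (for example 4 or more of 12 for B-like, after cells with over 5% haemoglobin UMIs were set aside as red cell-like). UMIs were summed per class and library and given as CPM of the class's UMIs. Since 3′ UMIs are not scaled by length, levels were compared between classes and libraries, not ranked between genes. Intervals are exact Poisson or exact binomial (Clopper-Pearson). A count of 0 allows up to 3 counts. Log2 ratios carry a pseudocount of 1 CPM, so they understate changes of low genes. A gene was read if the compared libraries held 100 or more UMIs of it together, and singled out past 1.5-fold. Named genes are all 10 members, the genes of the pathway lists past the fold with a few neighbours, and the 5 genes most alike over class and library points of at least 50 cells where the gene reached 100 CPM. H2-Ea was not analysed here, because no counted gene carried that symbol. The members, lists, gates and comparisons were chosen with earlier results of these data known.

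Clusters (scanpy 1.11.5, leidenalg 0.10.2, resolution 1, 2000 variable genes without the members) and Scrublet doublet scores (limit 0.2 in each library, since the automatic limit marked no aged-GA cell) served as alternatives. Python 3.11.15, numpy 2.4.6 and scipy 1.17.1 were used. The ratio procedure was tested on simulated counts for aged-GA over aged B-like sums, drawn with counting error only from a shared profile. Of 195 genes among 9419 given a known change larger than 1.5-fold, 99.5% were past the fold. Of all intervals, 95.3% held the true ratio. The simulation holds no variation between cells, mice or libraries, so it checks the calculation and says nothing of such variation.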

Additional observations from a re-analysis of the deposited data

Results flagged for a closer look

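Class II UMIs were also counted in barcodes under 200 genes, which entered no comparison. These 971 young, 5466 aged and 3852 aged-GA barcodes held 140, 2729 and 3234 class II UMIs, which is 18.4 CPM (15.5 to 21.7), 97.9 CPM (94.3 to 102) and 162 CPM (157 to 168), each above the level of up to 0.394, 0.108 and 0.151 CPM that a count of 0 allows. The order of the libraries is that of Cd74 in T-like cells.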

How the results depend on the processing

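No paired analysis was possible because each group is 1 library. Log2 ratios of the summed class II level moved as follows. B-like, aged over young (-0.09): -0.11 with stricter gates, -0.071 at 15% mitochondrial UMIs, -0.18 with haemoglobin, immunoglobulin, mitochondrial and ribosomal protein genes out of the total, and -0.12 as a mean over cells. B-like, aged-GA over aged (0.11): 0.10, 0.11 and 0.13 under the first 3 of these. Nonclassical, aged over young (0.87): -0.88 with clusters in place of gates (H2-Aa -0.98, H2-Ab1 -0.85, H2-Eb1 -0.78), 0.49 as a mean over cells and -0.24 without cells above 100 class II UMIs per 10000. Nonclassical, aged-GA over aged (-0.07): 0.093 without doublets, 0.72 with clusters (H2-Eb1 0.64), -0.81 with stricter gates and 0.24 without the high cells. Classical, aged-GA over aged (1.77): 1.54 with clusters, 2.08 with stricter gates, 1.84 as a mean over cells, 1.93 with the T-like level subtracted and 0.31 without the high cells. Leaving out the high cells was chosen after seeing the data and removes cells by the level compared (0 in the young library), so it bears on no call. The causes were not tested. Without the minimum of 100 UMIs more members were past the fold, the added ones all with few UMIs. Nonclassical ones numbered 6 in place of 3 (aged over young) and 4 in place of 1 (aged-GA over aged). In aged-GA over aged, classical ones numbered 9 in place of 6 and dendritic ones 2 in place of 0. Stricter gates left no dendritic value in the aged-GA library. Of 372 member values under alternatives, 313 moved by less than their counting interval and 55 by more. The other 4, named above, were past the fold and changed sign with clusters in place of gates. This count leaves out members within the fold, some of which may have changed sign as well. The ratio of Ciita in aged over young B-like cells ran from 1.03 to 1.31, and that of H2-DMb2 from -0.56 to -0.47.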
